A study of Mus musculus with 15 samples.

Results

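Cholesterol genes were described here in cultured mouse cell lines that carry the genotype labels AKP or AP. The set holds 29 genes chosen by name for their place in cholesterol synthesis, its control, uptake, transport and efflux. They were chosen with earlier results of these data known. Of the 29, 27 had a probe set among the 18193 genes measured. Acat2, a thiolase at the start of the pathway, and Nr1h2, a sterol-sensing nuclear receptor, had no probe set under their names in the gene table used and were not analysed here. RNA of 12 AKP lines and 3 AP lines was hybridised, 1 array per line. All lines were grown untreated in DMEM with serum. The letters of AKP and AP are not explained in the labels, which also name no tissue, promoter, Cre or age and do not say whether lines share an animal. Adenoma is the label of 1 AKP line, AKP 6, and tumour that of the other 11 AKP lines and the 3 AP lines. In all, 10 lines are labelled female and 5 male. AP 3 is the only AP line labelled female, while most AKP lines are. The series' design text counts 10 AKP lines, while 12 were analysed here. P-values therefore measure the spread between these lines, and precision is limited by having only 3 AP lines.

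Mammalian cells build cholesterol from acetyl-CoA. Enzymes of the mevalonate steps make farnesyl diphosphate, squalene enzymes join and close it into lanosterol, and the later enzymes trim lanosterol to cholesterol. The transcription factor SREBP2, encoded by Srebf2, turns these genes on when membrane sterol is low, after SCAP has carried it from the endoplasmic reticulum to the Golgi for cleavage, while INSIG proteins hold the complex back when sterol is plentiful. The LXR nuclear receptors act in the opposite state and turn on the efflux pumps ABCA1 and ABCG1.

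Each gene was read through its brightest probe set, a group of short probes for 1 transcript, as the deposited log2 value. Array medians lay between 3.91 and 4.17, and 35.9% to 39.5% of probe sets lay below 3, called the floor here because low values pile up there. Lines AKP 1 and AP 1 stood apart, since their median correlation with the rest was the lowest (0.922 for AKP 1 and 0.892 for AP 1, across genes, which are not independent replicates). The calls are given below with and without them. The labels name no cell type. Of 11 measured epithelial markers 0 passed the test between genotypes. Their summed level ran from 12.3 to 16.9 (log2) in AKP lines and from 10.0 to 16.0 in AP lines, lowest in AKP 1 and AP 1. Among AKP lines, AKP 8 followed at 12.9, and the next was AKP 10 at 15.6. Between 0 and 6 of these epithelial markers lay below 3 in a line of either genotype, with 6 in AKP 1 and in AP 1. Of 7 haematopoietic, 6 endothelial and 4 hepatocyte markers limma called 0, with summed levels up to 11.0, 7.85 and 6.84 in AKP lines and up to 9.38, 8.36 and 9.60 in AP lines. Positive differences numbered 4, 2 and 2 in these lists. Cd68 differed by 3.74, with 11 of 12 AKP lines above all AP lines, and did not pass. Cdh5, Lyz2 and Csf1r differed by -2.30, -2.13 and -1.78 and did not pass either. Of 12 fibroblast and smooth muscle markers, 11 had a negative difference, with a median of -3.35. The test called 0 higher and 2 lower in AKP, Col1a1 by -5.02 and Lum by -0.54, with Lum near the floor. Postn, Pdgfra and Col1a2 differed by -7.71, -5.11 and -4.01 and did not pass. Their summed level ran from 8.36 to 16.36 in AKP lines and from 11.8 to 17.9 in AP lines, highest in AKP 1 and AP 1. Between 1 and 6 of these markers lay below 3 in an AKP line, and between 1 and 4 in an AP line. Their part in the results below was not tested. In bulk RNA, fewer cells of a type and less RNA per cell cannot be told apart.

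The comparison of AKP with AP asked which of the cholesterol genes go with the genotype label. In AKP lines, 6 of the 27 measured genes were higher and 0 lower: the regulator gene Srebf2 and the enzyme genes Idi1, Fdft1, Msmo1, Sc5d and Dhcr7 (limma adjusted p under the threshold of 0.05 over all genes). Among all genes tested, 1.9% were called in either direction, 0.792% were called higher in AKP and 1.1% lower, while the cholesterol genes stood at 22.2% higher. Because the set was chosen with earlier results of these data known, this contrast is a description and not a test of the set. Higher calls made up 41.7% of all calls on the values as deposited, and 53.5% with arrays centred on their medians, where 8 of the 27 genes were called higher. With array weights 2 of the 6 calls held, Srebf2 and Fdft1, and Idi1, Dhcr7, Sc5d and Msmo1 had limma adjusted p-values of 0.057, 0.12, 0.16 and 0.21. With an unequal-variance statistic for each gene by itself, which does not share the spread between genes, 0 of the 6 held, and the lowest adjusted p among them was 0.099, for Srebf2. The median log2 difference was 0.78 over the 27 genes and 0.01 over all 18193 genes. Of the 17 measured synthesis enzymes 15 had a positive difference, with a median of 1.22. In 3 uptake and transport genes and 3 efflux genes the test called 0, and their median differences were -0.06 and -0.61. At an unadjusted p under the same limit, 16 of the 27 genes passed, against 16.5% of all genes.

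**Figure D1:**
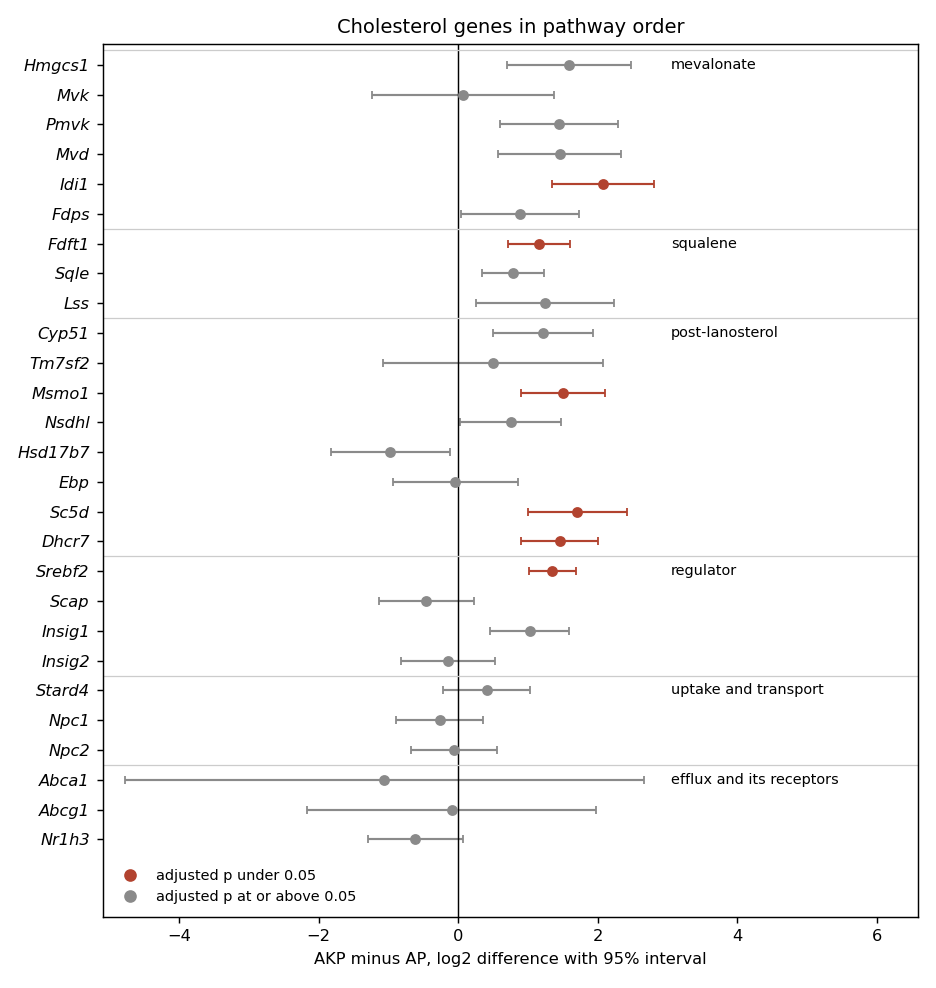
Log2 difference between AKP and AP lines for the 27 measured genes in pathway order, with 95% intervals from limma. The 6 red points passed the adjusted threshold and all lie right of 0, between 1.16 for Fdft1 and 2.08 for Idi1, while the efflux genes at the bottom have intervals that include 0.

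Srebf2 encodes the transcription factor of the pathway. It had a lowest value of 10.27, a median of 10.77 and a highest of 11.00 log2 in AKP lines, against 9.11, 9.44 and 9.53 in AP 1, AP 2 and AP 3. The genotypes did not overlap. The means were 10.71 ± 0.25 in AKP (SD, n = 12) and 9.36 ± 0.22 in AP (SD, n = 3), a log2 difference of 1.35 ± 0.15 (SE; limma adjusted p = 8.0e-04), or 2.55-fold. By p it ranked 10 of 18193 genes. A second Srebf2 probe set did not repeat this. That dimmer probe set lay between 8.57 and 9.64 in AKP lines with a median of 9.07, against 8.93, 8.87 and 8.99 in the AP lines, so the genotypes overlapped. It differed by 0.16 ± 0.17 (SE; limma adjusted p = 0.71 over all probe sets). As the mean of both probe sets, Srebf2 differed by 0.76 and passed (limma adjusted p = 0.0043). Which part of the Srebf2 transcript each probe set reads was not analysed here.

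The partners of SREBP2 differed among themselves. Insig1, which retains the complex and is itself a known SREBP target, had a lowest value of 11.87, a median of 12.27 and a highest of 13.42 log2 in AKP lines, against 11.44, 11.59 and 11.23 in the AP lines. The genotypes did not overlap, and AKP 1 and AKP 2 were the highest lines. The difference was 1.03 ± 0.26 (SE) and missed the threshold (limma adjusted p = 0.065). Its paralog Insig2 lay inside the span of the AP lines throughout, at 10.64 to 11.74 in AKP against 12.30, 11.17 and 10.42 in AP, with a difference of -0.15 and a 95% interval from -0.82 to 0.52. Scap, the escort, averaged 10.91 ± 0.44 in AKP (SD, n = 12) and 11.36 ± 0.81 in AP (SD, n = 3), and AP 1 held the highest value, 12.30. Its limma adjusted p was 0.53.

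Among the 6 mevalonate enzymes, all 6 had a positive difference, with a median of 1.45, and 1 was called. Idi1, the isomerase that makes dimethylallyl diphosphate, had a lowest value of 11.29, a median of 12.10 and a highest of 13.18 log2 in AKP lines, against 10.24, 10.62 and 9.48 in AP 1, AP 2 and AP 3. The genotypes did not overlap. AKP 9 and AKP 12 were the highest lines and AP 3 was the lowest. The difference was 2.08 ± 0.34 (SE; limma adjusted p = 0.0091), or 4.23-fold. Its second probe set differed by 3.34 ± 0.80 and missed the threshold over all probe sets (limma adjusted p = 0.053), with AP 3 at 4.55 against 9.80 and 9.91 in AP 1 and AP 2.

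Hmgcs1, the synthase that condenses acetoacetyl-CoA with acetyl-CoA, had a lowest value of 12.72, a median of 13.79 and a highest of 14.44 log2 in AKP lines, against 12.37, 12.97 and 10.93 in the AP lines. The genotypes overlapped, with 10 of 12 AKP lines above all AP lines, and AP 3 was the lowest line. The difference of 1.59 ± 0.41 (SE) did not pass (limma adjusted p = 0.068). Its other probe sets differed by 0.84 to 2.75, and the dimmest of them passed, at 7.51 ± 0.68 in AKP (SD, n = 12) and 4.76 ± 0.62 in AP (SD, n = 3; limma adjusted p = 0.0062 over all probe sets). In that dimmest probe set AP 3 was the highest of the AP lines, at 5.26, so the order of the AP lines was not shared among the Hmgcs1 probe sets.

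Mvd, the decarboxylase that yields isopentenyl diphosphate, averaged 9.94 ± 0.65 in AKP (SD, n = 12) and 8.48 ± 0.67 in AP (SD, n = 3), and 10 of 12 AKP lines exceeded all AP lines (limma adjusted p = 0.090). The second Mvd probe set passed, with a difference of 1.85 ± 0.40 (SE; limma adjusted p = 0.036 over all probe sets). Pmvk, phosphomevalonate kinase, ran from 9.47 to 11.10 in AKP lines against 8.03, 9.15 and 9.43 in AP lines, without overlap (limma adjusted p = 0.081). Fdps, which makes farnesyl diphosphate, lay at 13.23 to 14.45 in AKP and at 11.71, 12.68 and 14.18 in AP. AP 3 was within the AKP range for Fdps, although it was the lowest line for Idi1 and Hmgcs1. Mvk, mevalonate kinase, differed by less than its spread, at 8.40 ± 1.03 in AKP (SD, n = 12) and 8.34 ± 0.58 in AP (SD, n = 3), with a 95% interval from -1.24 to 1.37.

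**Figure D2:**
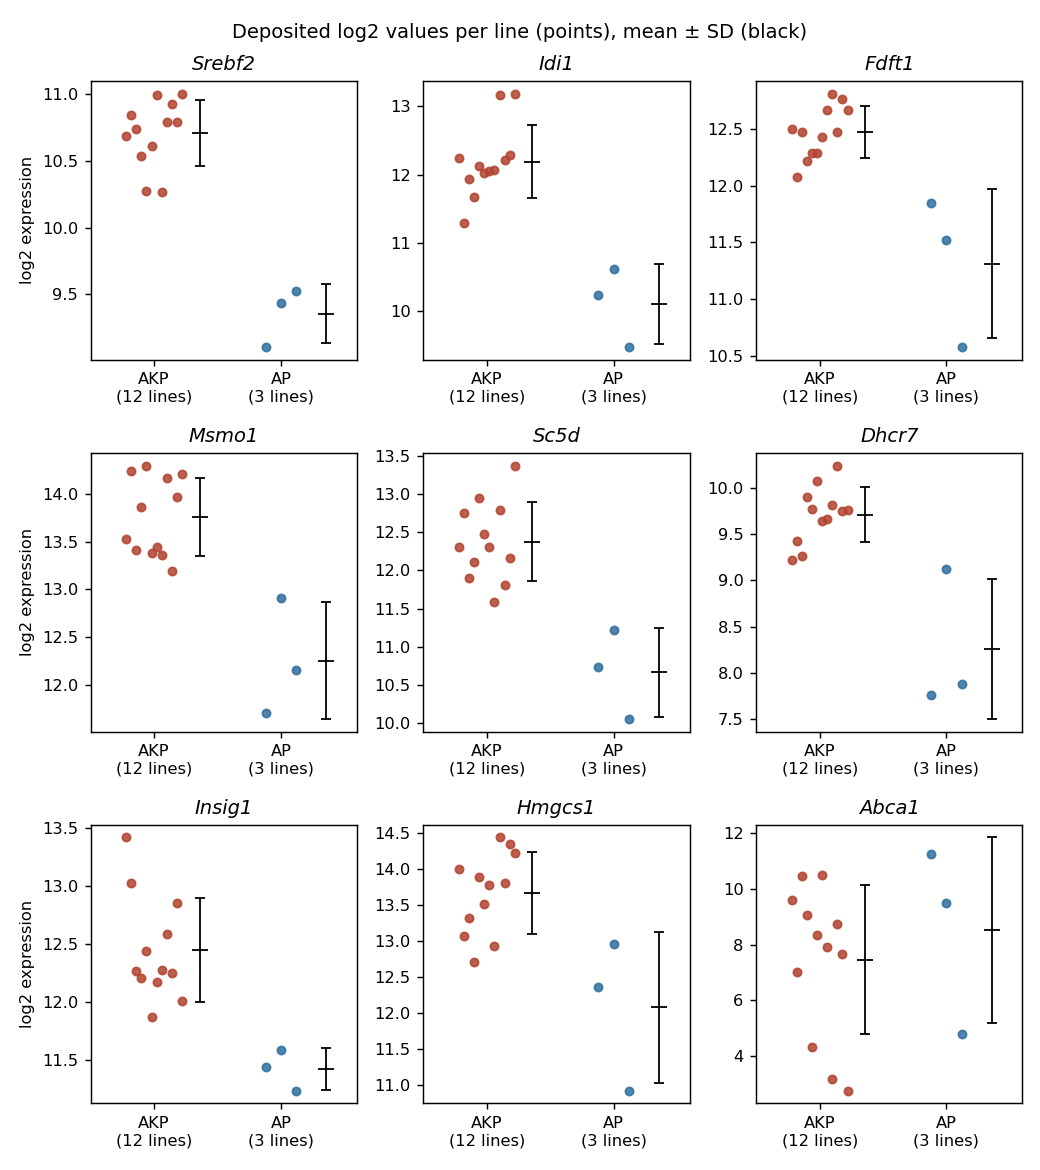
Deposited log2 values of 9 genes in 12 AKP lines (red, left in each panel) and 3 AP lines (blue, right), with the mean and SD in black beside each group. Srebf2, Idi1, Fdft1, Msmo1, Sc5d, Dhcr7 and Insig1 do not overlap between the genotypes, whereas Hmgcs1 overlaps and Abca1 spreads widely in both.

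All 3 squalene enzymes had a positive difference. Fdft1, squalene synthase and the first enzyme committed to sterols, had a lowest value of 12.07, a median of 12.47 and a highest of 12.81 log2 in AKP lines, against 11.84, 11.52 and 10.58 in AP 1, AP 2 and AP 3. The genotypes did not overlap, and AP 3 was again the lowest line. The difference was 1.16 ± 0.21 (SE; limma adjusted p = 0.014), and a second Fdft1 probe set also passed, by 0.85 ± 0.19 (SE; limma adjusted p = 0.039 over all probe sets). Sqle, squalene epoxidase, ran from 12.08 to 13.10 in AKP and lay at 11.88, 11.62 and 11.74 in AP. It did not overlap either, but its difference of 0.78 ± 0.21 missed the threshold (limma adjusted p = 0.072). Lss, lanosterol synthase, varied more among AKP lines, from 9.71 to 12.52, and 11 of 12 exceeded all AP lines (difference 1.25 ± 0.46, SE; limma adjusted p = 0.20).

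Of 8 enzymes that turn lanosterol into cholesterol, 3 were higher in AKP, and 6 had a positive difference. Msmo1, the sterol C-4 methyl oxidase, had a lowest value of 13.19, a median of 13.70 and a highest of 14.30 log2 in AKP lines, against 11.70, 12.91 and 12.15 in the AP lines. Sc5d, the lathosterol oxidase, had 11.58, 12.31 and 13.37 as lowest, median and highest in AKP lines, against 10.73, 11.22 and 10.06. Dhcr7, which performs the last reduction to cholesterol, had 9.22, 9.76 and 10.24, against 7.77, 9.13 and 7.88. At the brightest probe set of each of these genes the genotypes did not overlap, with AP 2 nearest to the AKP lines. The differences were 1.50 ± 0.28 for Msmo1 (limma adjusted p = 0.016), 1.71 ± 0.33 for Sc5d (0.0195) and 1.45 ± 0.25 for Dhcr7 (0.012; SE throughout). The dimmer probe sets of Sc5d differed by 1.05 and 0.19 and did not pass (limma adjusted p = 0.22 and 0.71 over all probe sets). That of Msmo1 differed by 0.67 and did not pass either (limma adjusted p = 0.50). In each of these dimmer probe sets the genotypes overlapped.

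Cyp51, the lanosterol demethylase, gave positive differences in all its 3 probe sets, from 1.22 to 1.46, and none passed. Nsdhl, a sterol dehydrogenase, differed by 0.75 ± 0.34 (SE; limma adjusted p = 0.28). Not every enzyme of this stretch pointed the same way. Hsd17b7, a ketosteroid reductase of the same pathway, averaged 9.06 ± 0.60 in AKP (SD, n = 12) and 10.03 ± 0.80 in AP (SD, n = 3), and 8 of 12 AKP lines were under all AP lines (limma adjusted p = 0.24). Its other probe sets above the floor differed by -0.14 and 0.26. Ebp, the sterol isomerase, differed by -0.04 with an interval from -0.94 to 0.86, and by 0.05 with arrays centred on their medians. Tm7sf2, a sterol reductase, ran from 7.74 in AKP 1 to 11.64 in AKP 11, a span that held all AP lines. Across all 27 genes, 9 did not overlap between the genotypes with AKP higher (33.3%), against 0.951% of all genes, and 0 with AKP lower, against 1.18%. These shares too describe a set chosen with earlier results known.

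**Figure D3:**
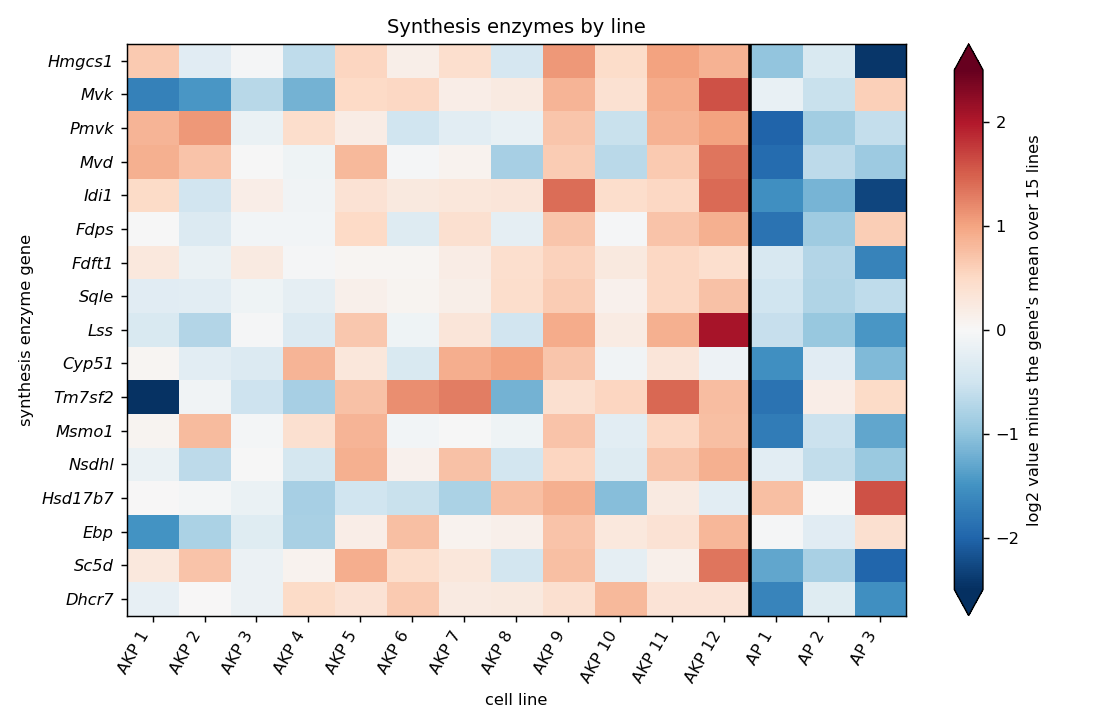
Log2 value of the 17 measured synthesis enzymes in each line, as the difference from the gene's mean over 15 lines (colour), with AKP lines left of the black line and AP lines right of it. AKP 12 is the highest line for 8 enzymes, and AP 1 and AP 3 are each the lowest line for 6.

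The enzymes also varied among the AKP lines. Relative to each gene's mean over all lines, the median deviation of the 17 enzymes was highest in AKP 12 (0.87 log2), AKP 9 (0.70), AKP 11 (0.53) and AKP 5 (0.49). On the deposited scale it was below 0 in AKP 2 (-0.26), AKP 4 (-0.11), AKP 3 (-0.10) and AKP 8 (-0.10), but AKP 2 stood at 0.076 with arrays centred on their medians. AKP 12 held the highest value of all lines for 8 of 17 enzymes, and in AKP 9 and AKP 11 all 17 lay above the gene mean. The AP lines had median deviations of -1.30 in AP 1, -0.61 in AP 2 and -0.93 in AP 3, below those of all AKP lines. With arrays centred on their medians, the AKP lines ran from -0.31 in AKP 4 to 1.02 in AKP 12, and the AP lines from -1.24 to -0.84. AP 1 and AP 3 each held the lowest value for 6 enzymes, but for different ones: AP 1 was lowest in Pmvk, Mvd, Fdps, Cyp51, Msmo1 and Dhcr7, and AP 3 in Hmgcs1, Idi1, Fdft1, Lss, Nsdhl and Sc5d. AKP 1, the other line that stood apart, was the lowest line for Mvk, Tm7sf2 and Ebp.

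Of the fits that left out 1 line, the one without AP 3 kept the fewest calls. Without AP 3, 1 of the 27 genes was called, Srebf2, with a difference of 1.44 ± 0.18 (SE; limma adjusted p = 0.0020). As AP 3 is the only AP line labelled female, the fit without it sets AP lines labelled male alone against AKP lines of both labels. In that fit 0.313% of all genes were called higher, against 0.792% with all lines. The other calls missed the threshold there, with limma adjusted p-values from 0.051 to 0.11. Their differences were 0.79 for Fdft1, 1.76 for Idi1, 1.27 for Dhcr7, 1.45 for Msmo1 and 1.40 for Sc5d. Dhcr7 and Msmo1 differed by less without AP 1, by 1.21 and 1.22, than without AP 3. Without AP 1 and AKP 1, Srebf2, Idi1, Fdft1 and Dhcr7 were called, against 0.934% of all genes called higher. Srebf2 differed there by 1.23, Idi1 by 2.14, Fdft1 by 1.42, Dhcr7 by 1.25, Msmo1 by 1.24 and Sc5d by 1.74. Of the 27 genes, 25 had a positive difference in that fit, against 18 with all lines, and the median over the 17 enzymes was 0.97.

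**Figure D4:**
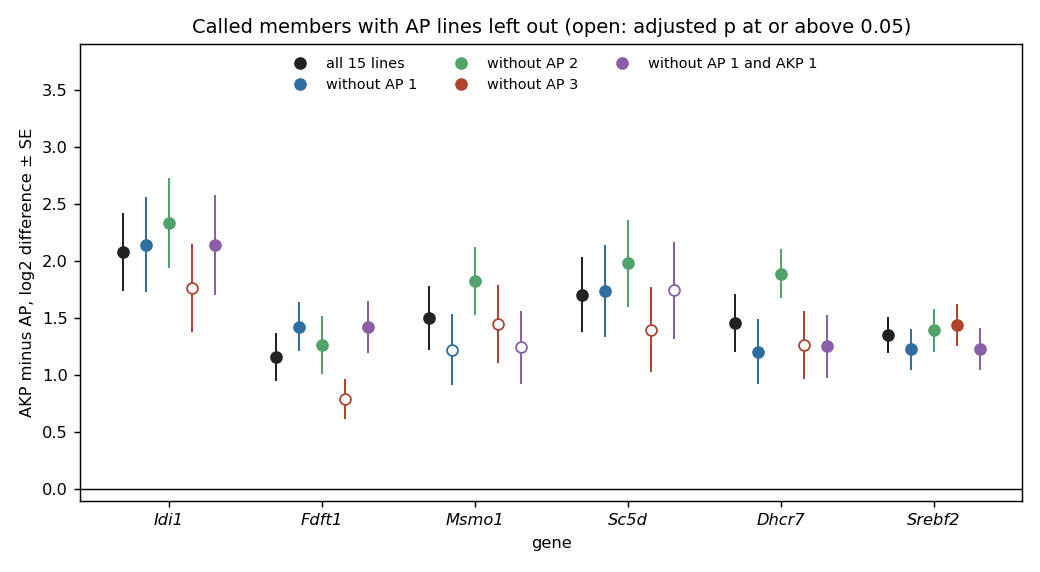
Log2 difference between AKP and AP lines, with its SE, for the 6 called genes with all lines and with AP lines or the pair AP 1 and AKP 1 left out. Filled points passed the adjusted threshold and open points did not; without AP 3 only Srebf2 stayed filled, although all 6 differences stayed positive.

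Promoter sequences are shown for called members given with a single RefSeq start, for Hmgcs1, and for Abca1 as a gene of the opposite arm. Hmgcs1 alone among the 23 members searched held the sterol element in the form searched, TCACNCCAC. Variant forms were not searched or marked, so the other members are not shown to lack such an element. The called genes Fdft1, for which no sequence was given, and Dhcr7, with 3 starts, are not shown. Windows of 300 bases, from 250 before to 50 after each start, were taken from RefSeq on GRCm38.p6 and were given for 23 of the 29 genes. The letters TCACNCCAC, a common form of the sterol regulatory element bound by SREBP proteins, occurred on either strand in 1 of these 23 genes, against 1.44% of 27025 genes. CCAAT, the box bound by the SREBP partner NF-Y, occurred on either strand in 18 of 23 genes and in 14 of 14 measured enzyme genes with a window, against 41.1% of all genes. CCGCCC, the GC box, occurred on either strand in 20 of 23 genes, against 38.2%. The LXR response element of the DR4 kind, searched only as an exact repeat, was found in 0 of 23, against 0.0148% of all genes. With only 4 of 27025 genes matching, this search cannot tell whether a member holds such an element. Imperfect repeats were not searched or marked, so the members, Abca1 included, are not shown to lack one. Genes with several starts counted once where any window matched, base composition was not matched, and a match is a description of letters and not a bound site. The 250 bases before each start are printed 5′ to 3′ along the gene's strand, with CCAAT or its complement ATTGG, and in Hmgcs1 also the sterol element, in capitals.
Srebf2 (chr15:82147019-82147268, forward strand): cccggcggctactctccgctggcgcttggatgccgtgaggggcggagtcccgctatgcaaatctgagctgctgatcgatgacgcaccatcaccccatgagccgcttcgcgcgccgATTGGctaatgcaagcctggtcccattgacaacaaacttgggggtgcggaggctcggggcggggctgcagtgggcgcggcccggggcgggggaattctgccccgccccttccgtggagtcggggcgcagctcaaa
Hmgcs1 (chr13:119690101-119690350, forward strand): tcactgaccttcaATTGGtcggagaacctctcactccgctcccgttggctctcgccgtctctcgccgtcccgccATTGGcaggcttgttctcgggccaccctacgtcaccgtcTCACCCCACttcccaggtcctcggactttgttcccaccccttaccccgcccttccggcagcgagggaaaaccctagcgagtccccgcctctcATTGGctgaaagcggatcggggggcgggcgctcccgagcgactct
Idi1 (chr13:8885356-8885605, forward strand): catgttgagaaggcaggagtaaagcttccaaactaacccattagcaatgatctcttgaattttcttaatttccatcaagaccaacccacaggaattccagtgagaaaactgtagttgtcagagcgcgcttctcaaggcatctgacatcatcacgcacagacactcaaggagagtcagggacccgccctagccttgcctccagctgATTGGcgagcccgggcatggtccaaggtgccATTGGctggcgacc
Msmo1 (chr8:64733579-64733828, reverse strand): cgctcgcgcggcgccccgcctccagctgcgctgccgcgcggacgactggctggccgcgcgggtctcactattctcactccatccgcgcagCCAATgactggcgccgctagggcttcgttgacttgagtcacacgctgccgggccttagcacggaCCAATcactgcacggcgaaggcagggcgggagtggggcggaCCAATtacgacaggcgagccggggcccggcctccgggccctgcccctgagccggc
Sc5d (chr9:42264301-42264550, reverse strand): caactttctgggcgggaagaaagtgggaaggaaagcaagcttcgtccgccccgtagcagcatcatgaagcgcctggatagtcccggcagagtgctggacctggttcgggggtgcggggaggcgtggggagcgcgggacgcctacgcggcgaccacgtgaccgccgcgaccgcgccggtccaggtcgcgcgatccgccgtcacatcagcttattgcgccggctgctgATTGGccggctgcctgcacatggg
Abca1 (chr4:53159896-53160145, reverse strand): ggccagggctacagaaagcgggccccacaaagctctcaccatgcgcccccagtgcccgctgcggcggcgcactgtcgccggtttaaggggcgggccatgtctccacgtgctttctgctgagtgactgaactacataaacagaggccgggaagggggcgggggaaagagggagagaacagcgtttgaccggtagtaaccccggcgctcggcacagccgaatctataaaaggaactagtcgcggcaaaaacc
In Hmgcs1 the sterol element began at position -137 from the start, between boxes at -176 and -45, with a further box at -237. Msmo1 held boxes at -160, -96 and -55 and Idi1 at -45 and -14, while Sc5d held 1 at -24 and Srebf2 1 at -135. The Abca1 window held neither CCAAT nor the sterol element in the form searched.

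Among uptake and transport genes, Stard4, which moves sterol between membranes, lay at 11.71 to 12.95 in AKP lines and at 11.41, 12.77 and 11.80 in AP lines, a difference of 0.41 ± 0.29 (SE; limma adjusted p = 0.53). Npc1 and Npc2, which pass cholesterol out of lysosomes, differed by -0.26 and -0.06, with intervals from -0.89 to 0.36 and from -0.67 to 0.56. For both genes the genotypes overlapped, with AP 1 above every AKP line at 10.89 and 15.05.

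Abca1, which loads cholesterol onto apolipoproteins, had the widest spread of the set at its brightest probe set. It had a lowest value of 2.75 in AKP 12, a median of 8.12 and a highest of 10.49 in AKP 7 among AKP lines, against 11.25, 9.50 and 4.80 in AP 1, AP 2 and AP 3. The lines AKP 9 (3.16) and AKP 12, which were the 2 highest lines for the synthesis enzymes by median deviation, were the 2 lowest for Abca1, with AKP 5 (4.33) next. AKP 11, the next line for the enzymes, had 7.67. This order was singled out after the values were seen and was not tested. The dimmer Abca1 probe sets did not repeat it. In the brighter of them AKP 9 and AKP 12 had 3.77 and 3.81, against an AKP median of 3.76, and AKP 11 was lowest at 3.36. The dimmest, near the floor at 3.16 to 3.89 in AKP lines, was also lowest in AKP 11. The difference between genotypes was -1.06 with a 95% interval from -4.78 to 2.66. Abcg1, a pump that passes cholesterol to lipoprotein particles, was high in AKP 1 (7.93) and AP 1 (8.52), the lines that stood apart, and AKP 7 and AKP 11 followed at 6.85 and 6.12. AP 2 and AP 3 lay at 3.97 and 3.62. Without AP 1 and AKP 1 the Abcg1 difference was 1.24, against -0.09 with all lines, and neither passed. Nr1h3, the LXR alpha gene, was dim everywhere, at 2.35 to 3.43 in AKP lines and at 4.65, 2.99 and 2.88 in AP lines, so that only AP 1 stood clear of the floor.

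Where genes had several probe sets, the readings were compared. Of 33 further probe sets for 18 genes, 7 lay below 3 in every line. Of the remaining 26, 22 had the sign of the brightest one and 3 were called higher over 34945 probe sets, where 0.727% of all were called higher and 1.65% in either direction. Those 3 belonged to Fdft1, Hmgcs1 and Mvd. None was called lower.

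**Figure D5:**
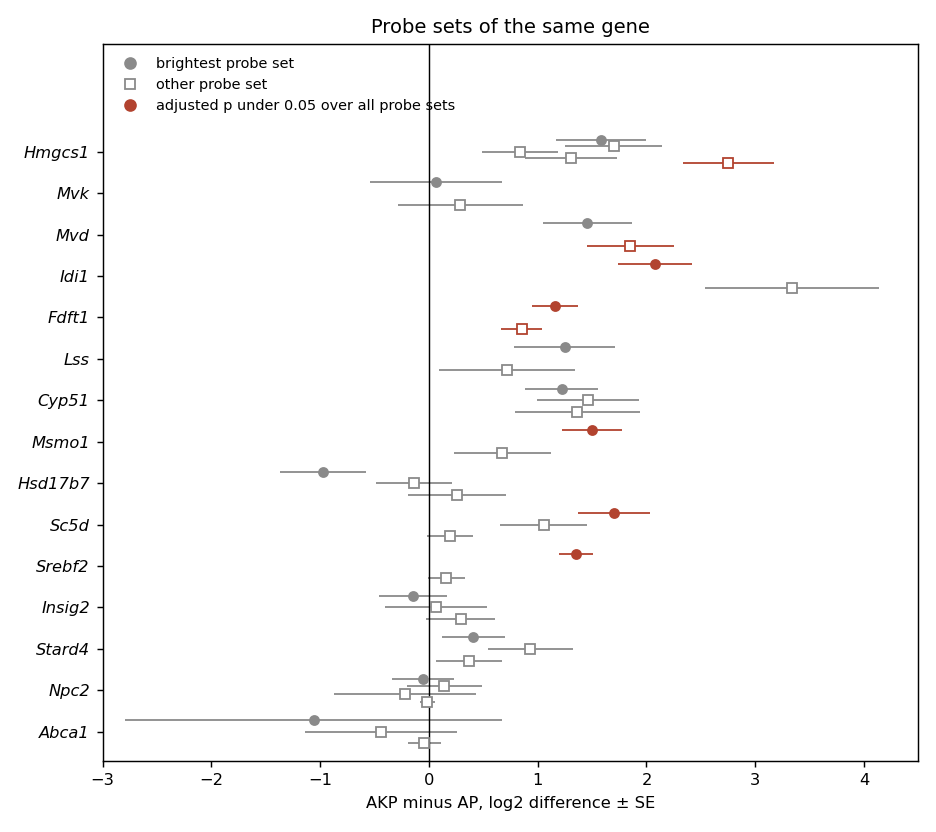
Log2 difference between AKP and AP lines with its SE for every probe set above the floor, in genes with more than 1, with the brightest as a filled circle at the top of each gene and the others as open squares. The Srebf2 probe sets part at 1.35 and 0.16, while those of Hmgcs1 all lie right of 0.

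In the authors' deposited table comparing AKP with AP, 5 of 501 entries were cholesterol genes, and all 5 were higher in AKP, as were 253 of the 501 entries of the authors' deposited table. Log2 differences in the authors' deposited table were 2.80 for Hmgcs1, 1.94 for Mvd, 1.51 for Dhcr7, 1.39 for Srebf2 and 1.14 for Fdft1. For Srebf2, Dhcr7 and Fdft1, the group means of the authors' deposited table lay closest to the brightest probe set, when the AKP mean was taken without AKP 1 and AKP 8. The Hmgcs1 and Mvd entries of the authors' deposited table matched dimmer probe sets, whose differences are larger than those of the brightest ones. Without AKP 1 and AKP 8, 8 of the 27 genes were called at their brightest probe set, the 6 above with Insig1 and Mvd, against 1.86% of all genes called higher.

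Genes around the pathway were read from 3 further lists. In the branches that lead from mevalonate to prenyl groups, ubiquinone and dolichol, 1 of 15 measured genes was higher and 1 lower, with a median difference of 0.01. Rabggta, a subunit of the Rab prenyltransferase, ran from 8.18 to 9.91 in AKP lines against 7.55, 8.07 and 7.73 in AP lines, without overlap (difference 1.47 ± 0.32, SE; limma adjusted p = 0.034). Pggt1b, a subunit of the enzyme that attaches geranylgeranyl groups to proteins, ran from 9.18 to 10.02 in AKP against 9.84, 10.75 and 10.67 in AP and was lower (difference -0.83 ± 0.19, SE; limma adjusted p = 0.043). Nus1, a subunit of the dolichol synthase, differed by 0.62 and did not pass (limma adjusted p = 0.24).

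In the list of SREBP processing and sterol-regulated degradation 0 of 14 genes passed, with a median of -0.19. Srebf1, which encodes the SREBP form tied mainly to fatty acid genes, differed by 0.76 ± 0.22 (SE; limma adjusted p = 0.098), and 11 of 12 AKP lines exceeded all AP lines. Pgrmc1 and Paqr3 differed by -0.64 and 1.12 and did not pass either. In the list of other uptake, storage, transfer and LXR target genes, 1 of 29 was called, with a median of 0.05. That gene was Lrp8, a receptor of the lipoprotein receptor family, which had a lowest value of 8.49, a median of 9.36 and a highest of 10.57 in AKP lines, against 5.41, 7.31 and 6.56 in AP lines. The genotypes did not overlap, and the difference was 2.91 ± 0.40 (SE; limma adjusted p = 0.0025). Stard5, a sterol-binding transfer protein, differed by -2.39 ± 0.64 and Abca5 by 1.21 ± 0.34, and both missed the threshold (limma adjusted p = 0.075 and 0.093).

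The labels also allowed a comparison by sex and a look at the adenoma line. Between lines labelled female and male, with genotype as a covariate, limma called 0 of the 27 genes and 0 of all genes, and 3.16% of all genes had an unadjusted p under 0.05. The smallest p among the cholesterol genes was that of Hsd17b7, higher in female lines by 0.89 ± 0.28 (SE; limma adjusted p = 1.0). A genotype effect that differed between the labelled sexes passed for 0 of the 27 genes, against 2.01% of all genes, and only 1 AP line, AP 3, is labelled female. For AKP 6, labelled adenoma, 24 of the 27 genes lay within the range of the 11 AKP tumour lines, 0 above and 3 below, against 4.18% of all genes above and 5.75% below. With so few genes, nothing is read from this count. Those below were Cyp51 (12.09 against a lowest tumour line of 12.12), Insig1 (11.87 against 12.00) and Npc1 (9.33 against 9.57). With 1 line of this label the difference has no replicate check.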

How the data were processed

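Affymetrix arrays measured RNA from 15 cultured mouse lines, per the labels' protocols. The authors deposited log2 values per probe set; how they corrected background, summarized and scaled them, and with what software, is not stated in the sources at hand, and detection calls are not included. Per the file headers, the authors' deposited comparison table lists a p-value with its step-up form, a t score, both log2 group means, and the linear ratio with its signed fold.

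From 45101 probe sets 64 controls were left out, 1 of them with missing values. The platform's gene table gave 34945 probe sets a single gene, 932 more than 1 and 9160 no gene. By Entrez identifier 34741 of the first were found in RefSeq GRCm38.p6, and 0 symbols needed changing. The brightest probe set over 15 arrays stood for its gene. AKP and AP were compared with limma 3.58.1 in R 4.3.3 (two-sided moderated test from lmFit and eBayes, Benjamini-Hochberg over 18193 genes), and sex with genotype as a covariate. Limma's call at an adjusted p of 0.05 is what higher and lower called refer to. The fit was also run on simulated data with independent normal noise, equal in spread between the genotypes and without outlying lines. That setting differs from these data, and no result here rests on it.

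All 29 genes are reported by role; from the 3 further lists, called genes and the 3 with the lowest p are named. The members and lists were chosen with earlier results of these data known. Alternatives covered scaling, probe sets, dim-gene filters, variance model, weights, covariates, a replicate block, Welch's statistic across genes and leaving out lines. Leaving out AP 1 with AKP 1, or AKP 1 with AKP 8, was chosen after seeing the data.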

Additional observations from a re-analysis of the deposited data

How the results depend on the processing

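The 6 calls among the cholesterol genes stayed called with quantile normalization, trend and robust eBayes, sex as a covariate, the pair label, dim-gene filters, centred arrays, and without any single AKP line. With the mean of all probe sets 5 genes were called: 4 of the 6, without Msmo1 and Sc5d, and in addition Hmgcs1 (limma adjusted p = 0.038). Without AP 1 the count was also 5, without Msmo1. The count was 9 with the pair label, which added Pmvk, Sqle and Insig1 and called 440 of all genes. It was 2 with array weights and 2 with the Welch statistic, which called 0 of the 6, and 1 to 8 leaving out 1 line, with 1 without AP 3. Of all genes, 345 were called, against 191 when genes under the 60th percentile were left out, 153 with array weights, 181 with the Welch statistic, 728 without AKP 1 and AKP 8, 575 over single probe sets and 177 to 584 leaving out 1 line. The 177 came without AP 3 and the 584 without AP 2, with 540 without AKP 8, and 224, 216 and 219 without AKP 5, AKP 6 and AKP 11. With arrays centred on their medians, 53.5% of calls were higher in AKP, against 41.7% as deposited. Same-numbered lines deviated together in 1 of 3 pairs only (correlations of 0.46, -0.04 and -0.06). Such correlations cannot tell whether same-numbered lines share more than a number, and the labels do not say. With the replicate block, limma called 0 genes and 0 cholesterol genes, with 2043 and 9 at an unadjusted p under 0.05, in a fit of 3 numbered pairs.

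Genes that were not called changed sign in some settings. With arrays centred, Ebp was 0.051 and Npc2 0.034. With quantile normalization Abcg1 was 0.032, and with the mean of all probe sets Insig2 was 0.070. With array weights Ebp was 0.13, Npc2 0.079 and Abcg1 0.51. With sex as a covariate Mvk was -0.075, Npc2 0.015 and Abcg1 0.092, and with the pair label Mvk was -0.25. With the replicate block Mvk was -1.23, Tm7sf2 -0.63, Npc2 0.41, Abca1 0.50 and Abcg1 0.055. Without AP 1 and AKP 1, Ebp was 0.069, Scap 0.067, Insig2 0.35, Npc1 0.044, Npc2 0.29, Abca1 0.11 and Abcg1 1.24, and without AKP 1 and AKP 8 Ebp was 0.10. Leaving out 1 line, Mvk ran from -0.19 to 0.38, Tm7sf2 from -0.22 to 0.95, Ebp from -0.20 to 0.14, Scap from -0.73 to 0.013, Insig2 from -0.59 to 0.35, Npc2 from -0.28 to 0.36, Abca1 from -2.92 to 0.31 and Abcg1 from -0.97 to 1.48. The cause of these changes was not tested.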
